A study of Mus musculus with 2 samples.

Results

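NF-kappaB subunits and inhibitors were described in LSK cells of PAD4-deficient and wild-type mice. The set held 10 genes, chosen by name: the subunit genes Rel, Rela, Relb, Nfkb1 and Nfkb2, and the inhibitor genes Nfkbia, Nfkbib, Nfkbie, Nfkbiz and Tnfaip3. Every spot on both arrays that carried one of these gene names was taken, which gave 14 of 41170 probes and 32 spots per array. Of the 14 probes, 13 probes of 9 genes were measured, that is, well above background on both arrays, against 62.0% of all probes on the array. The labels call the 2 groups PAD4-/- and WT, both of the strain C57BL/6, with 1 array each. LSK cells are the lineage-negative, Sca-1-positive and c-Kit-positive bone marrow cells that hold haematopoietic stem and multipotent progenitor cells, here collected by flow cytometric sorting. The deleted part of Padi4, the age and number of the mice and any pooling of RNA were not given in the sources used here.

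NF-kappaB proteins are dimers of the subunits RelA (p65), RelB, c-Rel, p50 and p52. The last pair is cut from the precursors p105 and p100, which Nfkb1 and Nfkb2 encode. In resting cells IkappaB proteins hold the dimers in the cytoplasm until IkappaB kinase marks them for degradation, and freed dimers then drive immune and survival genes, including those of their own inhibitors. In blood-forming cells this pathway is known for its part in responses to infection and inflammatory cytokines and in stem cell maintenance.

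Promoter windows are shown because several of these genes, above all the inhibitors, are known targets of NF-kappaB. A table of RefSeq gene starts (GRCm38.p6) held 10 upstream windows for 7 of the 10 genes, each with the 250 bases before the start. At least 1 match to the kappaB consensus, a motif of 10 bases that was searched on both strands with overlapping matches counted, lay in the windows of 5 of those 7 genes (71.4%). Over the whole table, 2225 of 27025 genes (8.23%) had a match in windows of this length. The windows below are those of Nfkb2 (its first start), Nfkbia, Nfkbie and Tnfaip3 (its first start), which hold matches, and of Rela, which holds none. They are printed 5′ to 3′ on the strand of the gene, with the matches in capitals.

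Nfkb2, chr19:46304487-46304736, plus strand: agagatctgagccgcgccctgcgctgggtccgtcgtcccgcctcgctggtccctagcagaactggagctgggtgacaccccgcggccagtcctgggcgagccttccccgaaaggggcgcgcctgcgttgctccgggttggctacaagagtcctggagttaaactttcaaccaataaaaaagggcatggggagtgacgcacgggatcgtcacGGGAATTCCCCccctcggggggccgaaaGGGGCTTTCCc
Rela, chr19:5637291-5637540, plus strand: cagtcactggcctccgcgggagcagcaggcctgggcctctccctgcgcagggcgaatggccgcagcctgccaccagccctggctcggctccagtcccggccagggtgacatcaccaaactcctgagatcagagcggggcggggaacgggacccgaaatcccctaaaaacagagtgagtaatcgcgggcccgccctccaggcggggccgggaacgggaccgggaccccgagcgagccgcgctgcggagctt
Nfkbia, chr12:55492648-55492897, minus strand: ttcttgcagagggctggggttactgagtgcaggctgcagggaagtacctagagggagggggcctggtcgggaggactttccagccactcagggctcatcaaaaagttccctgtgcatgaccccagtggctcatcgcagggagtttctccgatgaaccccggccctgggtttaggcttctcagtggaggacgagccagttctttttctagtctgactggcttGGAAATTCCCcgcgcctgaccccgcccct
Nfkbie, chr17:45555450-45555699, plus strand: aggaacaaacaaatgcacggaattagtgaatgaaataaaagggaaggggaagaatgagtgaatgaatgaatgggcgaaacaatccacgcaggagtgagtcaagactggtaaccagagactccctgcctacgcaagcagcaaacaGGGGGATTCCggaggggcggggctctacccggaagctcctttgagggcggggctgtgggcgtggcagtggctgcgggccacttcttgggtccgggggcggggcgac
Tnfaip3, chr10:19015411-19015660, minus strand: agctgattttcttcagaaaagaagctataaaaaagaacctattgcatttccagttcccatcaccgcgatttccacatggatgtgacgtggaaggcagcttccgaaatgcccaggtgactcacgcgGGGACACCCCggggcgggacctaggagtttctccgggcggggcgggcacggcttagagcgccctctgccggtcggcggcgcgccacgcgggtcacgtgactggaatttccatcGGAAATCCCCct

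In Nfkb2, 2 overlapping matches covered bases 39 to 29 before the start, and another match lay 11 to 2 bases before it. The other 2 Nfkb2 windows held 1 match each. The single Nfkbia match lay 29 to 20 bases before the start, and that of Nfkbie lay 106 to 97 bases before it. In Tnfaip3 one match lay 125 to 116 bases before the first start and another 12 to 3 bases before it, and the window of its other start held 0 matches. The Rel window had 2 overlapping matches, 92 to 82 bases before the start. The windows of Rela and Nfkbib had 0 matches, which says only that these letters are not in those windows.

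The 3 Padi4 probes on the PAD4-deficient array stood at 21.2% to 24.2% of the wild-type array, and the brightest had a processed signal of 2670 on the PAD4-deficient array and 12879 on the wild-type array. The arrays also differed in sex-linked transcripts, as the 4 Xist probes cleared background on the PAD4-deficient array alone. The brighter probe of Y-linked Ddx3y had 1297 on the PAD4-deficient array and 3455 on the wild-type array. Y-linked Eif2s3y had 1076 on the PAD4-deficient array and 2611 on the wild-type array. Both genes were well above background on both arrays, so the PAD4-deficient array held Xist and Y-linked signal together. Genotype and sex-linked differences cannot be told apart here, and the mix of sexes in the RNA was not tested. All 8 stem and progenitor markers were measured, with summed signals of 134615 on the PAD4-deficient array and 148821 on the wild-type array. Cd34 made up most of that sum (85480 on the PAD4-deficient array and 95103 on the wild-type array). Of the 8 markers 5 lay below 0, against 45.0% of all measured genes, with a median difference of -0.12. Of these markers 1, Flt3, was lower past 1.5-fold (-0.67 on the log2 scale). Past 1.5-fold lay 1.87% of all measured genes on the lower side and 2.88% on the higher side. A sum of signals was taken before the arrays were scaled and is led by its brightest probes, so counts are given beside it. Summed signals of neutrophil markers were 150953 on the PAD4-deficient array and 107082 on the wild-type array, with 6 of 6 genes above 0, 5 of them higher by more than their error, 1 higher past 1.5-fold and a median difference of 0.48. Mpo made up most of that sum (118188 on the PAD4-deficient array and 81966 on the wild-type array). B and plasma cell markers summed to 8371 on the PAD4-deficient array and 6444 on the wild-type array, with 6 of 6 above 0 and 3 of 6 higher past 1.5-fold. Dendritic cell markers summed to 6248 on the PAD4-deficient array and 4649 on the wild-type array, with 3 of 6 higher and 1, Flt3, lower past 1.5-fold. Monocyte and macrophage markers summed to 54757 on the PAD4-deficient array and 54360 on the wild-type array, of which Lyz2 alone had 52969 on the PAD4-deficient array and 52689 on the wild-type array. Of these 6 genes 1, Ccr2, was higher past 1.5-fold (1.48), and the median was 0.08. T cell markers summed to 117 on the PAD4-deficient array and 114 on the wild-type array over the 2 of 5 that were measured, with 0 past 1.5-fold. Of the other T cell markers, Cd8a (75.5 PAD4-deficient and 9.74 wild-type) and Cd3d (22.0 PAD4-deficient and 13.4 wild-type) cleared background on the PAD4-deficient array alone, and Cd3g on neither array. Their part in the NF-kappaB values was not tested. In sorted cells measured in bulk, fewer cells of a type and less RNA per cell cannot be told apart.

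All 13 measured NF-kappaB probes, and all 9 measured genes, had a lower level on the PAD4-deficient array than on the wild-type array. The differences ran from -0.65 for Relb to -0.02 for Nfkbib on the log2 scale. Below 0 lay 46.0% of all measured probes and 45.0% of all measured genes. Among the genes within the signal range of these 13 probes the share was 46.1%. With 1 array per group there is no replicate check and no test, and the error given with each difference is the spot error of the scanner software over both arrays. It does not hold the spread between mice. For the 13 measured probes this error ran only from 0.204 to 0.206, so passing it is close to passing a fixed cut. It was averaged over the spots of a probe, so more spots did not make it smaller. Levels are the processed signal of a probe, a brightness in arbitrary units, which can be set between arrays for 1 probe but not between probes. Differences are PAD4-deficient minus wild-type, taken after each array was scaled to its 75th percentile signal (786 for PAD4-deficient and 814 for wild-type).

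**Figure D1:**
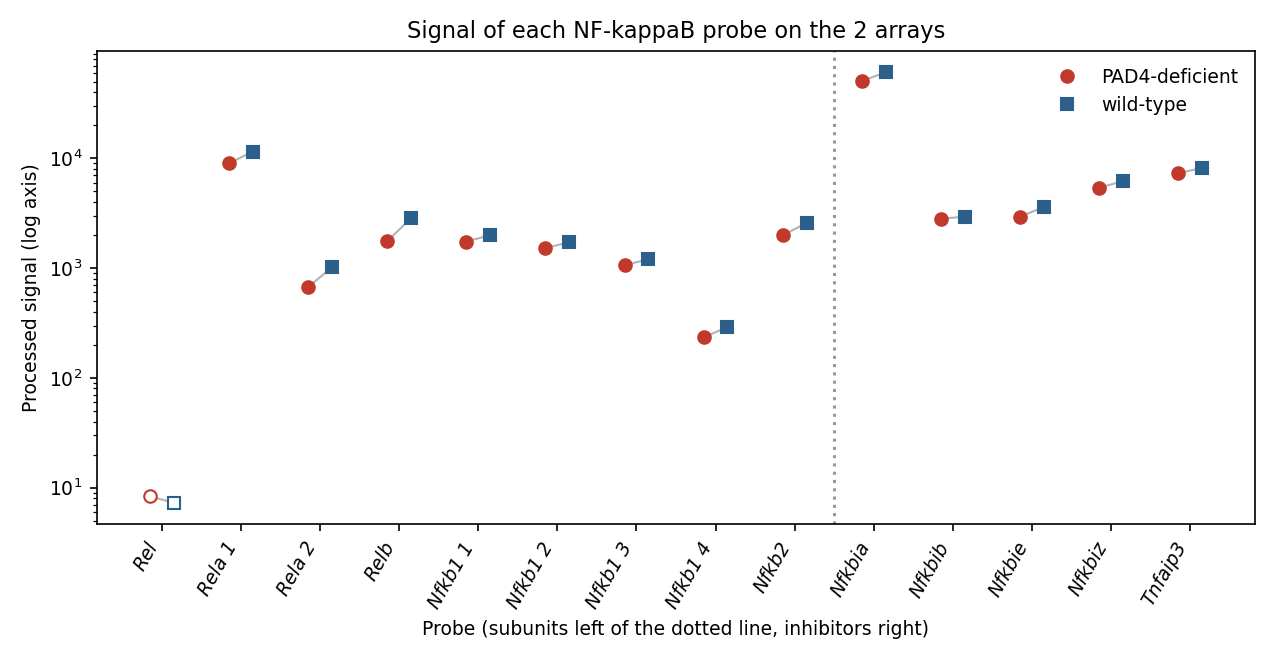
Processed signal (log axis, arbitrary units) of the 14 NF-kappaB probes on the PAD4-deficient array (circles) and the wild-type array (squares), subunits left of the dotted line and inhibitors right of it. Open symbols mark the Rel probe, not well above background on either array. The PAD4-deficient symbol is the lower one for each of the 13 filled pairs, and signals of different probes are not comparable in level.

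Among the subunits, Relb differed most. RelB is the transactivating partner of p52 in the noncanonical branch of the pathway. Its probe (mm8, chr7:18764895-18764954, minus strand) had a processed signal of 1755 on the PAD4-deficient array, against 2849 on the wild-type array. The difference was -0.65 ± 0.20 (spot error), or 63.8% of the wild-type level. Relb was the 1 gene of the set past 1.5-fold, a size reached in that direction by 1.87% of all measured genes and by 1.01% of those in the signal range of the set. At 2-fold the count was 0 of 9, against 0.476% of all measured genes. Of the 2569 probes with a signal within 0.5 log2 units of Relb, 20 (0.779%) were as low or lower.

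Nfkb2 encodes p100, which is both the precursor of p52 and an inhibitor that retains RelB. Its probe (mm8, chr19:46364967-46365106, plus strand, a listed span of 140 bases) had 1990 on the PAD4-deficient array and 2583 on the wild-type array. The difference was -0.33 ± 0.20, or 79.8% of the wild-type level, and 6.63% of the 2564 probes of like signal were as low. Both genes of the RelB and p52 dimer were lower by more than their spot errors, as were 14.1% of all measured genes. They were paired here after their values were seen, and the other genes of this branch, given further below, did not all lie on one side.

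Rela encodes p65, the main transactivating subunit of the canonical branch, and was read by 2 probes whose starts lie 496 bases apart. The brighter probe (mm8, chr19:5647632-5647691, plus strand) had 9000 on the PAD4-deficient array and 11551 on the wild-type array, a difference of -0.31 ± 0.20. The dimmer probe (mm8, chr19:5647136-5647195, plus strand) averaged 670 on the PAD4-deficient array and 1015 on the wild-type array over 10 spots each, a difference of -0.55 ± 0.20, and its spots are described below. The 2 probes had the same direction and differed in size, 80.7% of the wild-type level for the brighter and 68.3% for the dimmer. Of all genes with 2 measured probes, 32.1% had both below 0. The mean of both probes, in place of the brighter one, gave a Rela value of -0.43.

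Nfkb1 encodes p105, the precursor of p50. Its 4 probes lie on the minus strand of mm8 chromosome 3 and were all lower on the PAD4-deficient array, and the array design ties each to a different transcript record. The brightest (mm8, chr3:135522133-135522194) averaged 1745 over 10 spots on the PAD4-deficient array and 2000 over 9 spots on the wild-type array, a difference of -0.15 ± 0.20. The next (mm8, chr3:135549567-135549626) had 1530 on the PAD4-deficient array and 1714 on the wild-type array, a difference of -0.11 ± 0.20. These values lie within their spot errors, as does that of the third probe (mm8, chr3:135548598-135548657), with 1062 on the PAD4-deficient array and 1207 on the wild-type array and a difference of -0.13 ± 0.20. The dimmest probe (mm8, chr3:135555618-135555677) had 234 on the PAD4-deficient array and 290 on the wild-type array, and its difference of -0.26 ± 0.21 was past its error. Of the 395 genes with 4 measured probes, 49 (12.4%) had all of them below 0.

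Rel encodes c-Rel, the subunit best known from lymphocytes. Its 1 probe (mm8, chr11:23641729-23641743, minus strand) had 8.30 on the PAD4-deficient array and 7.30 on the wild-type array and was not well above background on either. No difference is given for it, and the listed span of this probe covers only 15 bases.

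**Figure D2:**
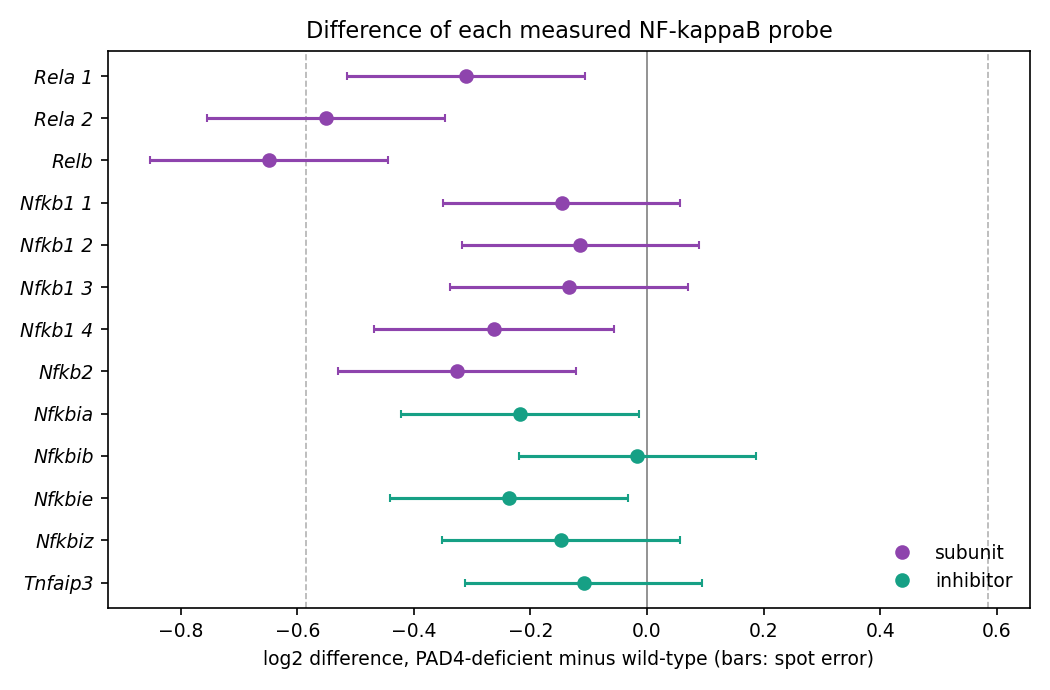
Difference of each of the 13 measured NF-kappaB probes (x axis, log2 units, PAD4-deficient minus wild-type), with bars for the spot error over both arrays and dashed lines at 1.5-fold in either direction. Probes of a gene are numbered from the brightest. All points lie left of 0, with Relb at -0.65 and Nfkbib at -0.02, and the bars do not show the spread between mice.

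The inhibitor genes had a median difference of -0.15, closer to 0 than the -0.32 of the subunit genes. IkappaBalpha, encoded by Nfkbia, is the classical feedback inhibitor that NF-kappaB itself induces. Its probe (mm8, chr12:56408088-56408583, minus strand, a listed span of 496 bases) had 50674 on the PAD4-deficient array and 61023 on the wild-type array. The difference was -0.22 ± 0.20, or 86.0% of the wild-type level, just past its spot error. With normexp on the mean and local background signals, in place of the processed signal, it was -0.13 with an offset of 50 and with an offset of 0, within the error, and the cause was not tested.

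IkappaBepsilon, encoded by Nfkbie, is an induced inhibitor that acts beside IkappaBalpha. Its probe (mm8, chr17:45026632-45026691, plus strand) had 2953 on the PAD4-deficient array and 3602 on the wild-type array, a difference of -0.24 ± 0.20. IkappaBbeta, encoded by Nfkbib, is not known as a strong target of that feedback. Its probe (mm8, chr7:28467908-28468589, minus strand, a listed span of 682 bases) had 2818 on the PAD4-deficient array and 2950 on the wild-type array, a difference of -0.02 ± 0.20, the smallest in the set. That was 98.9% of the wild-type level, and 45.1% of the 2451 probes of like signal were as low.

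Nfkbiz encodes IkappaBzeta, a nuclear protein that binds p50 and activates some promoters rather than holding dimers in the cytoplasm. Its probe (mm8, chr16:55736929-55736988, minus strand) had 5412 on the PAD4-deficient array and 6207 on the wild-type array, a difference of -0.15 ± 0.20. Tnfaip3 encodes A20, an enzyme that edits ubiquitin chains on upstream signalling proteins and ends the signal. Its probe (mm8, chr10:18690604-18690663, minus strand) had 7338 on the PAD4-deficient array and 8192 on the wild-type array, a difference of -0.11 ± 0.20. The values of Nfkbib, Nfkbiz and Tnfaip3 all lie within their spot errors.

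Set side by side, the 4 measured subunit genes had a median difference of -0.32 and a range of -0.65 to -0.15, with 3 of 4 lower by more than their error. The 5 inhibitor genes had a median of -0.15 and a range of -0.24 to -0.02, with 2 of 5 lower by more than their error. The medians differed by -0.17, and the ranges overlapped, because Nfkb1 at -0.15 lay among the inhibitors. The inhibitors without Nfkbib and Nfkbiz had a median of -0.22, and the medians then differed by -0.10. Over all measured genes the median was 0.02, and 14.1% were lower by more than their own error, against 5 of 9 in the set. Within the signal range of the set that share was 13.9%. By probe, 7 of 13 in the set were lower by more than their own error, against 15.1% of all measured probes. These shares are descriptions of 2 arrays, and the difference between subunits and inhibitors was not tested.

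**Figure D3:**
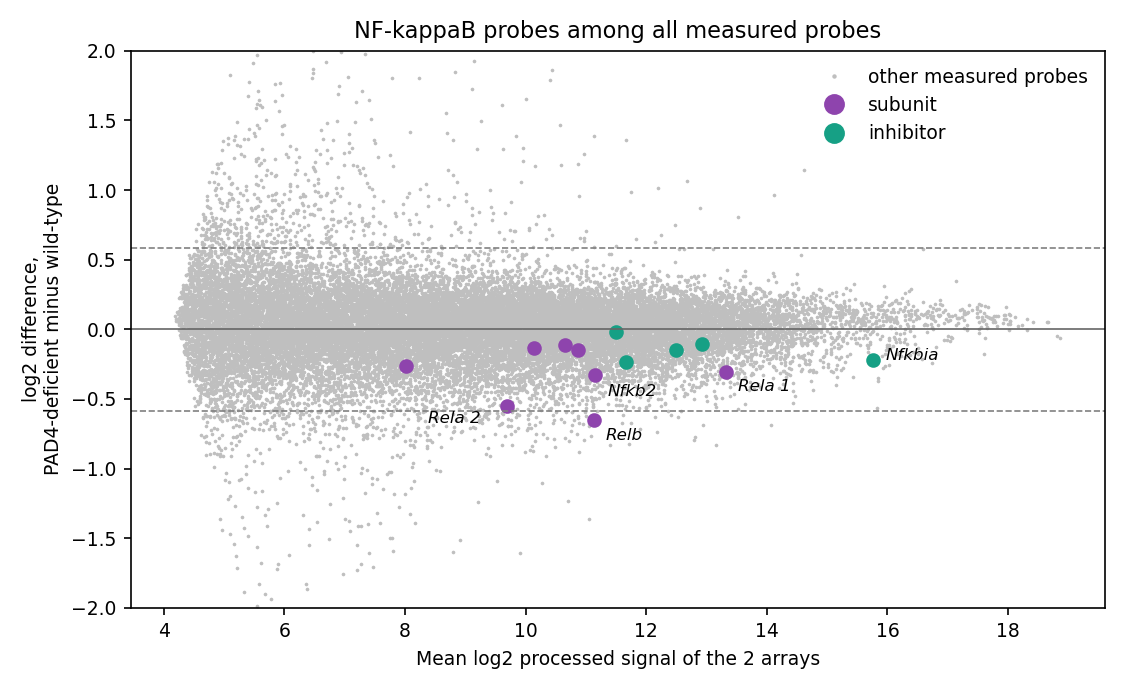
Difference (y axis, log2 units, PAD4-deficient minus wild-type) against mean log2 processed signal (x axis) for all measured probes (grey), with subunit and inhibitor probes in colour and dashed lines at 1.5-fold; 56 probes lie outside the plotted range of 2 log2 units either way. Relb is the 1 NF-kappaB probe beyond a dashed line, and the Nfkbia probe lies far right, where few probes are found.

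Of these probes 2 were printed in several spots, which shows how well each array measured them. The dimmer Rela probe had spot signals of 614 (lowest), 661 (median) and 759 (highest) on the PAD4-deficient array, against 931, 1022 and 1086 (in the same order) on the wild-type array. The spot ranges did not overlap. The SD of its log2 signal between spots was 0.08 on the PAD4-deficient array and 0.07 on the wild-type array, and in 10 of 10 pairs of spots at the same position the PAD4-deficient spot was lower, by -0.62 to -0.47 on the log2 scale.

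The brightest Nfkb1 probe had 1653 (lowest), 1751 (median) and 1807 (highest) on the PAD4-deficient array, against 1909, 2000 and 2080 on the wild-type array. Its spot ranges did not overlap either, and in 9 of 9 pairs the PAD4-deficient spot was lower, by -0.18 to -0.12. Separation of this kind was common. Of 158 measured probes printed in at least 5 spots, 34 (21.5%) had ranges that did not overlap and were lower, and 33 (20.9%) were higher. Spots of 1 array share its RNA and labelling, so they are not replicates of a genotype.

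**Figure D4:**
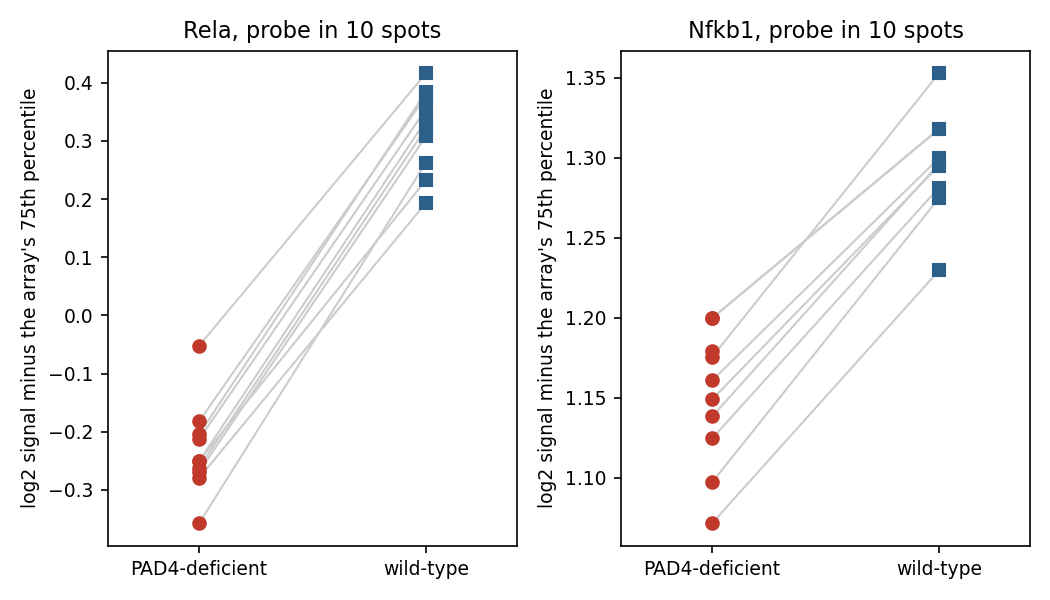
Each spot of the dimmer Rela probe (left) and of the brightest Nfkb1 probe (right), as log2 signal minus the array's 75th percentile, with lines joining spots at the same position; the y axes of the 2 panels differ. Every PAD4-deficient spot lies below every wild-type spot, with Rela levels of -0.36 to -0.05 against 0.19 to 0.42, and Nfkb1 levels of 1.07 to 1.20 against 1.23 to 1.35.

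The rest of the pathway is given by role, and each count is to be read against all measured genes, of which 45.0% lay below 0, 14.1% were lower and 16.1% higher by more than their error, with a median of 0.02. Of 15 IkappaB kinase and activating kinase genes, all measured, 8 lay below 0, 4 were lower and 4 higher by more than their error, and 0 passed 1.5-fold, with a median of -0.09. The lowest were Map3k3 (2459 on the PAD4-deficient array and 3129 on the wild-type array, -0.30), a MAP3 kinase, and Tab1 (7216 PAD4-deficient and 8979 wild-type, a difference of -0.27), a partner of the kinase TAK1. The highest were Irak4 (338 PAD4-deficient and 276 wild-type, a difference of 0.34), a kinase of Toll-like and interleukin-1 receptor signalling, and Tbk1 (781 PAD4-deficient and 667 wild-type, a difference of 0.28), an IkappaB kinase relative. A second probe of Map3k3 had -0.54, one of Irak4 had 0.01, and one of Tbk1 had -0.03.

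Of 16 adaptors and upstream proteins, all measured, 10 lay below 0, with a median of -0.04, and 0 passed 1.5-fold. Malt1, a protease and scaffold of antigen receptor signalling, had 1612 on the PAD4-deficient array and 2372 on the wild-type array (-0.51), and its other probe had -0.33. Rbck1, which encodes the HOIL-1 subunit of the linear ubiquitin ligase, had 9245 on the PAD4-deficient array and 12459 on the wild-type array (-0.38). These 2 genes were lower by more than their error, and 1 gene, Ube2n, was higher by more than its error. Ube2n, the ubiquitin-conjugating enzyme Ubc13, had 954 on the PAD4-deficient array and 798 on the wild-type array (0.31), and Traf6, a ubiquitin ligase that works with it, had 538 on the PAD4-deficient array and 523 on the wild-type array (0.09).

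Of the 17 other inhibitors and regulators, all measured, 12 lay below 0, against 45.0% of all measured genes, and their median was -0.10. By more than their error 3 were lower and 0 higher, against 14.1% lower and 16.1% higher over all measured genes, and 0 passed 1.5-fold. Tnip1, which encodes the A20-binding protein ABIN1, had 5768 on the PAD4-deficient array and 7478 on the wild-type array (-0.32). Nfkbid, which encodes the nuclear protein IkappaBNS, had 3264 on the PAD4-deficient array and 3964 on the wild-type array (-0.23). The highest were Nkiras1 (446 PAD4-deficient and 415 wild-type, a difference of 0.15), a Ras-like protein that binds IkappaB, and Commd1 (8870 PAD4-deficient and 8302 wild-type, a difference of 0.15), which promotes removal of RelA, both within their errors. The other Commd1 probes had 0.17 and 0.22, and 1 of them was past its error.

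Target genes of NF-kappaB had both directions. Of 32 listed, 26 were measured, 15 lay below 0, 5 were lower and 5 higher by more than their error, and the median was -0.04. At 1.5-fold 2 were higher and 0 lower by their brightest probes, against 2.88% higher and 1.87% lower over all measured genes. Myb had 0.26 by its brightest probe, and its other probes ran from 0.15 to 0.71, the highest of them past 1.5-fold. Bcl2a1b, a prosurvival BCL2 relative, had 516 on the PAD4-deficient array and 279 on the wild-type array (0.94). Irf8, a transcription factor of monocytes, dendritic cells and B cells, had 7275 on the PAD4-deficient array and 4482 on the wild-type array (0.75), and its other probe had 0.34. The marker lists of dendritic cells and of B and plasma cells had median differences of 0.37 and 0.54, and their part in these 2 values was not tested.

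At the low end, Ltb, which encodes lymphotoxin beta, had 31210 on the PAD4-deficient array and 42537 on the wild-type array (-0.40), and Cd83, a surface protein of activated cells, had 925 on the PAD4-deficient array and 1213 on the wild-type array (-0.34), both picked here after their values were seen. Il1a, Il6, Cxcl1, Nos2 and Csf2 were not well above background on either array, and Cd40 was so on 1 array only.

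**Figure D5:**
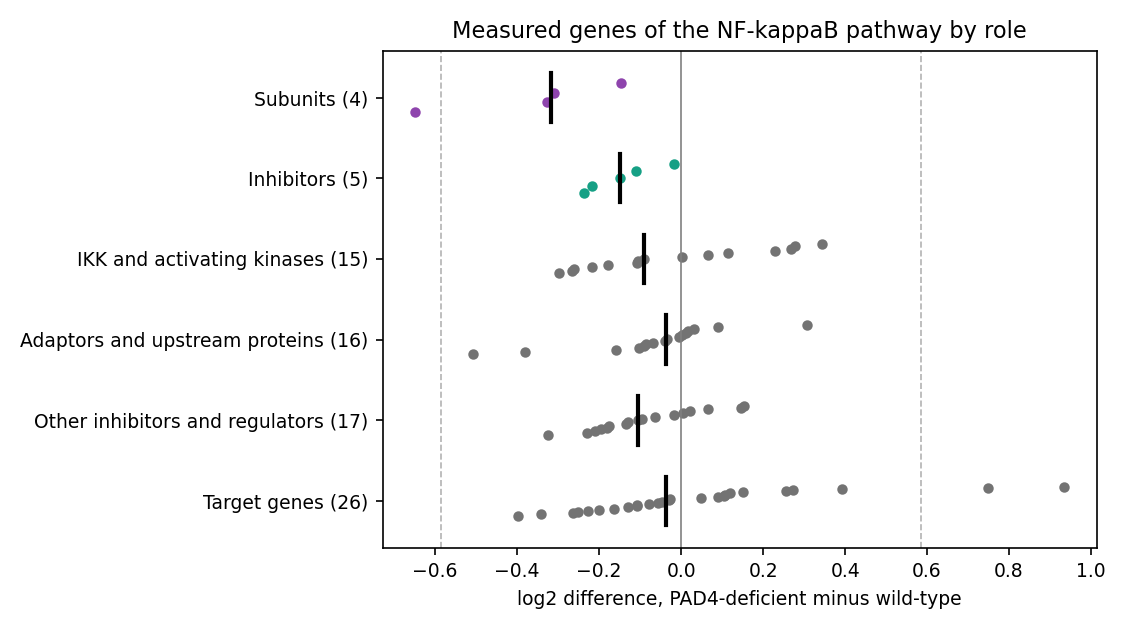
Difference (x axis, log2 units, PAD4-deficient minus wild-type) of each measured gene, from its brightest measured probe, by role in the pathway, with the number of measured genes in brackets, a black bar at each median and dashed lines at 1.5-fold. The medians are -0.32 for subunits and -0.15 for inhibitors, and between -0.10 and -0.04 for the other 4 lists, where genes lie on both sides of 0.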

How the data were processed

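Total RNA (Trizol) from sorted LSK cells was amplified from 300 ng with the Quick Amp kit and labelled with Cy3, per the labels' protocols, and read on 1 array per genotype. Both arrays were of design 014868 and shared a slide and a scan. The deposited scanner files give intensity on a linear scale: per the file headers, Feature Extraction 9.5.3.1 (9.5 in the submitters' processing notes) subtracted background and wrote a processed signal with an error for each spot, and probe positions are mm8. The deposited table of values holds log2 values. They equal log2 of the median signal over the spots of a probe minus 9.62 on the PAD4-deficient array and 9.67 on the wild-type array, within 0.01 for all 41174 probes, with column medians of -3.53 (PAD4-deficient) and -3.59 (wild-type), so its scale, centring and direction were settled.

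Here, log2 processed signal was averaged over unflagged spots (121 spots on the PAD4-deficient array and 98 on the wild-type array were flagged, 0 were saturated) and the 75th percentile of each array subtracted. The PAD4-deficient array had 64.1% and the wild-type array 63.9% of 41170 probes well above background. Each gene took its brightest probe well above background on both arrays, which gave 17021 genes. Precision is limited by the number of arrays. At 1.5-fold, 318 genes were lower and 490 higher on the PAD4-deficient array, and with median scaling 417 and 426. Members and lists were chosen with earlier results of these data known. By rule, named were all members with every probe, Padi4 and, per pathway list, genes past 1.5-fold or else the 2 largest differences in each direction. Any other gene named was picked after its values were seen. Other probes were named through the RefSeq table of GRCm38.p6 (24371 by accession, 6301 by symbol, 2426 by synonym, 8072 under the name in the files). The scaling was run on simulated copies of the wild-type array with added noise and equal numbers of probes raised and lowered. These copies held no sex-linked or cell type shift, so they cannot tell how the scaling behaves under one. Python 3.11.15, numpy 2.4.6, pandas 2.3.3, statsmodels 0.14.6 and matplotlib 3.10.9 were used, and normexp was run in limma 3.58.1 (R 4.3.3). The alternatives were normexp correction, other scalings, loess on signal, the deposited table, the mean over probes, other filters and a 2-fold limit.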

Additional observations from a re-analysis of the deposited data

How the results depend on the processing

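The 13 member probes had 104 values over 8 alternatives, and all were below 0. The alternatives reuse the same 2 arrays, so these values are not independent of each other. Apart from the subtraction of neighbouring spots, they moved the median of all measured probes by only -0.06 to 0.01. Relb was past 1.5-fold in all 8 (-0.70 to -0.62), and the dimmer Rela probe in 1, median scaling (-0.61). Below 0 lay 43.4% to 57.1% of all measured probes over 7 of them, all but the subtraction of neighbouring spots. Subtracting the median of neighbouring spots was chosen after seeing the data, and those medians were -0.03 to 0.04. Member genes lower by more than their error were 4 with either normexp setting, where Nfkbia had -0.13, and 5 with the other 5 of these 7. At 2-fold, 0 member genes were lower. The subunit median stayed between -0.38 and -0.31 and the inhibitor median between -0.22 and -0.13 over these settings, other filters and other probe choices. Their difference was -0.23 with the mean over probes and -0.10 without Nfkbib and Nfkbiz. Over all measured genes, 131 were lower and 203 higher on the PAD4-deficient array past 1.5-fold after normexp with an offset of 50, 622 and 962 when 1 array well above background sufficed, 1395 and 2309 with no filter, and 81 and 172 at 2-fold. With no filter the target gene median was 0.07. Of the target genes, 2 were higher past 1.5-fold, against 1 with the mean over probes, 5 with no filter and 0 at 2-fold. No paired analysis was possible because each genotype had 1 array. Signal near background limits Rel, for which no difference can be read.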

Other observations

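Genes of the noncanonical branch, grouped here after their values were seen, did not all lie on one side. Beside Relb and Nfkb2, Map3k14, which encodes the kinase NIK that starts p100 processing, had 1845 on the PAD4-deficient array and 2220 on the wild-type array (-0.22 ± 0.20). Chuk, which encodes the kinase IKKalpha that acts on p100, had 714 on the PAD4-deficient array and 614 on the wild-type array (0.27 ± 0.20), and its other probe had 0.25. Traf3 and Traf2, whose proteins keep NIK low in resting cells, differed by 0.00 and by -0.07. Traf3 had 3245 on the PAD4-deficient array and 3353 on the wild-type array, and Traf2 had 4023 on the PAD4-deficient array and 4363 on the wild-type array.

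Of the target genes, some more are given here, picked after their values were seen. Ccl3 had 13346 on the PAD4-deficient array and 15481 on the wild-type array (-0.16), Ccl4 had 25132 on the PAD4-deficient array and 27472 on the wild-type array (-0.08), and Ccl5 had 1620 on the PAD4-deficient array and 1511 on the wild-type array (0.15), each within its spot error, and the other Ccl5 probe had 0.21, past its error of 0.20. Tnf, which encodes the cytokine TNF, had 1483 on the PAD4-deficient array and 1799 on the wild-type array (-0.23 ± 0.20). Icam1, an adhesion receptor gene, had 6172 on the PAD4-deficient array and 7673 on the wild-type array (-0.26), and its other probe had -0.41. On the higher side, Vcam1 had 246 on the PAD4-deficient array and 194 on the wild-type array (0.39 ± 0.21). Il1b had 92.6 on the PAD4-deficient array and 79.4 on the wild-type array (0.27 ± 0.22). Of the 26 measured target genes, 5 were lower and 5 higher by more than their error.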
